A study of Homo sapiens with 4 samples.

Results

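The ETS factors examined here are 9 transcription factors with known roles in endothelium and blood: ETV2, ERG, FLI1, ETS1, ETS2, ETV6, ELK3, SPI1 and ELF1. They were taken from the expression table by gene symbol, and each symbol had 1 row, so that the 9 factors made up 9 of its 58365 rows. RNA had been sequenced from H1, a widely used line of human embryonic stem cells (hESCs), led towards blood in steps and harvested on day 8. All cells first received 40 ng/ml activin A and 50 ng/ml BMP4 for 2 days, then 40 ng/ml VEGF and 50 ng/ml bFGF for 3 days, and the same VEGF and bFGF for the last 3 days. In the last step, the cells of 2 libraries received DMSO, the solvent control, and those of 2 received SB431542 (SB). SB is a small molecule that inhibits the type I receptors for TGFβ, activin and nodal. The titles number the libraries 1 and 2 in each group, and nothing in the labels says that they came from separate differentiations, so p-values measure only the spread between these libraries, which may be technical. The study describes harvesting CD31-positive cells, a step that the labels do not give. All cells come from 1 line, which limits the cultures as a model of human blood formation.

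ETS factors bind DNA through a shared winged-helix domain that reads a GGAA core, and the bases around the core and the partner proteins set the choice of target. In the embryo, ETV2 acts briefly in mesoderm to start the endothelial and blood programs, after which FLI1, ERG, ETS1 and related factors keep endothelial genes active. FLI1 and ERG also act in blood stem cells and megakaryocytes together with TAL1, LYL1, LMO2, GATA2 and RUNX1. SPI1, also called PU.1, drives myeloid and B cell fates and opposes GATA1. ETV6 and ELK3 act mainly as repressors, while ETS1, ETS2 and ELK3 can be phosphorylated downstream of RAS and ERK, and ELF1 is active in many blood cells and in endothelium.

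The part of the coding sequence that writes the DNA-reading helix shows how close these factors are to each other. It is printed here because the factors share this helix but not each of its letters. Each line gives 48 bases (16 codons) from a GENCODE release 29 transcript, 5′ to 3′ on the coding strand, with capitals where all 9 factors have the same base.
FLI1: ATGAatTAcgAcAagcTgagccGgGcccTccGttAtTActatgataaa
ERG: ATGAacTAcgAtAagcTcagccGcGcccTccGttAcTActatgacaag
ETS1: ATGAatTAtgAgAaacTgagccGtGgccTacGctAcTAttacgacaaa
ETS2: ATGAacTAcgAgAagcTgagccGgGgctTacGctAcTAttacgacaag
ETV2: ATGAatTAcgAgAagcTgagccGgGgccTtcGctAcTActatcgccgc
ELK3: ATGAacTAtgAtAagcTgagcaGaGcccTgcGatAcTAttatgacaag
ETV6: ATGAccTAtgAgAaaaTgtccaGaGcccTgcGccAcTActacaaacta
ELF1: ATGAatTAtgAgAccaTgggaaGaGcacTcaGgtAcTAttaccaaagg
SPI1: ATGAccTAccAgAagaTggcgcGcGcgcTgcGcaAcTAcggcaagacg
Of the 48 bases, 16 were common to all 9 factors. ETS1 and ETS2 were the closest pair, with 42 identical bases (87.5%), followed by ERG and FLI1 and by ERG and ELK3 with 41 each (85.4%). SPI1 was the most distant factor, with a median of 57.3% identity to the others, against 78.1% for ETS2 and 77.1% for FLI1. In the sequences of ELF1 and ETV6 the medians were 61.5% and 63.5%. On GRCh38 the stretch lies within 1 exon in 8 of the factors, for example at chr11:128810617-128810664 on the plus strand in FLI1, at chr21:38383718-38383765 on the minus strand in ERG and at chr11:47355326-47355373 on the minus strand in SPI1. In ELF1 it is split over 2 exons, between chr13:40941355 and 40942983 on the minus strand.

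Despite this likeness, the transcripts of the factors can be told apart over exact stretches of 50 bases. Shorter stretches and matches with mismatches were not examined. No sequence of 50 bases in the annotated transcripts of any factor occurred in those of another (0 for each of the 9), and at most 0.413% of them, in ETS1, occurred in any other gene. Antisense and neighbouring genes cover a little of 3 factors, at 4.03% of the exonic bases of FLI1 (the antisense RNA SENCR and AP001122.1), 4.50% of those of ELK3 (AC008149.1) and 3.85% of those of ELF1 (WBP4). Use of strand in the counting is not given in the sources used here, so reads there cannot be assigned. Among the factors are 2 pairs of neighbours that point away from each other. ETS1 (chr11:128458761-128587558, minus strand) and FLI1 (chr11:128686535-128813267, plus strand) lie 98976 bases apart, and ERG (chr21:38380027-38661780, minus strand) and ETS2 (chr21:38805307-38824955, plus strand) lie 143526 bases apart, with 0 annotated protein-coding genes between the partners of either pair.

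Values are FPKM, a fragment count divided by transcript length and by the size of the library, as deposited. They are per length, so levels can be compared between genes. The absolute depth is unknown. Steps among the lowest values place the libraries between 75.8% (SB replicate 1) and 100% (SB replicate 2) of the deepest. Libraries also differed by replicate number: of all FPKM, mitochondrial genes held 5.88% (DMSO) and 6.64% (SB) in replicate 1, and 9.92% and 10.2% in replicate 2. Values are therefore given within each number as well, and the part of this difference in the results was not tested. Endothelial markers (PECAM1, CDH5, KDR, TEK, TIE1, CD34 and EMCN) summed to 1495 and 1351 FPKM with DMSO and to 1351 and 1249 FPKM with SB. Among blood markers, SPN, ITGA2B, VAV1 and CD33 were present, whereas PTPRC, which encodes CD45, reached at most 0.202 FPKM and MPO at most 0.249 FPKM.

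FLI1 and ETS1 were the most abundant of the 9 factors in all 4 libraries. FLI1 stood at 273 and 214 FPKM with DMSO and at 319 and 243 FPKM with SB, a level above that of 98.3% of the tested genes or equal to it. ETS1 stood at 119 and 133 FPKM with DMSO and at 127 and 132 FPKM with SB. Neither range overlapped that of the next factor. Below them came ELK3, SPI1, ERG and ELF1, with means over the 4 libraries of 67.9, 64.7, 54.6 and 43.3 FPKM. These neighbours overlapped in range, and their order changed between libraries: SPI1 was the fifth factor in DMSO replicate 1, the sixth in DMSO replicate 2, the third in SB replicate 1 and the fourth in SB replicate 2. ETS2 and ETV6 followed with means of 14.5 and 12.0 FPKM and overlapping ranges, although ETS2 was above ETV6 in each of the 4 libraries. ETV2 was the lowest, between 0.436 and 2.81 FPKM.

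**Figure D1:**
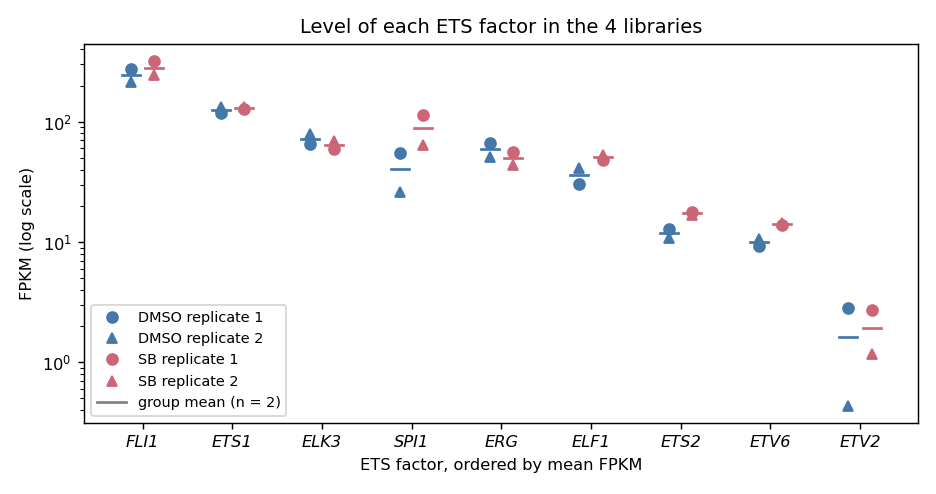
FPKM (log axis) of the 9 ETS factors in each library, with circles for replicate 1, triangles for replicate 2 and a bar at each group mean (n = 2). The SB libraries lie above both DMSO libraries for SPI1, ELF1, ETS2 and ETV6, and FLI1 and ETS1 are the top 2 factors throughout.

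To examine how inhibition of TGFβ signaling affects these factors, SB libraries were compared with DMSO libraries by limma on log2(FPKM + 1), fitted across 14909 genes with a mean of at least 1 FPKM in at least 1 group. All 9 factors passed this filter. None of them (0 of 9) passed an adjusted p of 0.05, against 0.134% of all tested genes (0.0268% higher and 0.107% lower with SB). With the replicate number as a block 3 passed (SPI1, ETS2 and ELF1), against 10.5% of all genes. At an unadjusted p under 0.05, 2 factors (ETS2 and ETV6) were higher with SB, against 4.80% of all genes in that direction, and 0 were lower, against 5.16%. In 4 of the 9 (SPI1, ETS2, ELF1 and ETV6), both SB libraries stood above both DMSO libraries, as they did in 21.5% of all genes. For 0 factors did both stand below, against 16.0% of all genes, and 37.5% of all genes did not overlap in either direction. Within both replicate numbers 5 factors were higher with SB and 2 (ERG and ELK3) were lower, against 40.9% and 30.6% of all genes. The median log2 fold change of the 9 factors was 0.28 (0.22 within replicate 1 and 0.34 within replicate 2), beside 0.04 over all tested genes, but it ranged from 0.067 without SB replicate 1 to 0.43 without SB replicate 2. It was 0.13 without DMSO replicate 2, and 0.50 with a pseudocount of 0.1. With 2 libraries a group, the smallest two-sided p of an exact permutation test is 0.333, so none was run.

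**Figure D2:**
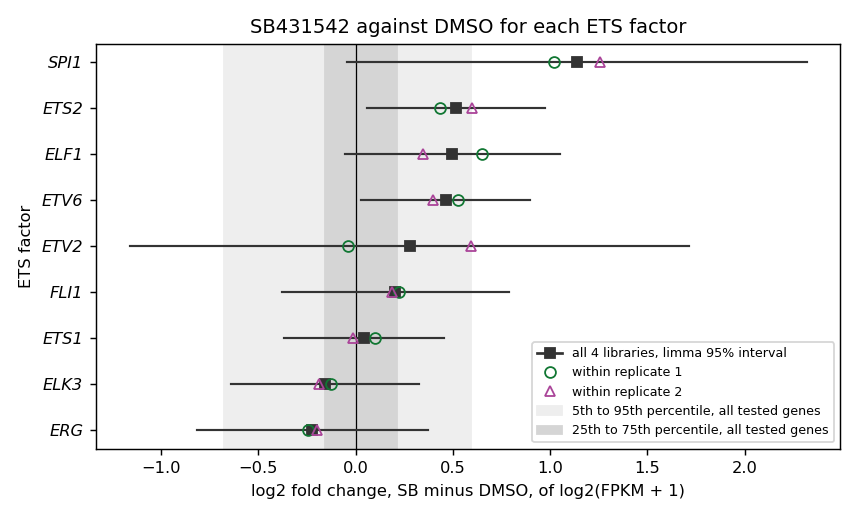
Log2 fold change (SB minus DMSO, on log2(FPKM + 1)) of each ETS factor, with squares and lines for limma's estimate and its 95% interval over 4 libraries, circles and triangles for the values within replicates 1 and 2, and grey bands for the spread of all tested genes. SPI1 lies beyond the band at 1.14, ERG is the lowest at -0.22, and intervals of all but ETS2 and ETV6 include 0.

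SPI1 (ENSG00000066336.11, chr11:47354860-47378576, minus strand), the master factor of myeloid cells, had the largest difference of the 9. Its level was 55.4 and 26.2 FPKM with DMSO and 113 and 63.9 FPKM with SB. Both SB libraries were above both DMSO libraries, but the lower SB value was close to the higher DMSO value. Within replicate 1 the level was 2.05-fold higher with SB and within replicate 2 it was 2.44-fold higher. The log2 fold change was 1.14 (SE 0.45, 95% interval -0.04 to 2.32, limma adjusted p 0.520), a value at or above that of 98.9% of tested genes. The level of SPI1 also differed between replicate numbers, by -0.93 on the log2 scale for number 2 against number 1 averaged over the groups. Removing DMSO replicate 1 took the log2 fold change to 1.66, and removing DMSO replicate 2 to 0.61.

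The level of SPI1 was also set against those of other genes in the same library, as ratios of FPKM that were chosen after the values were seen. SPI1 stood at 0.826 and 0.517 times the level of ERG in the DMSO libraries and at 2.01 and 1.45 times in the SB libraries, so that it was below ERG in both DMSO libraries and above it in both SB libraries. Relative to GATA1, the erythroid and megakaryocyte factor that SPI1 opposes, the ratio was 1.29 and 0.641 with DMSO and 1.80 and 1.02 with SB, and the groups overlapped. Relative to SPN, which encodes the blood cell surface protein CD43, it was 1.75 and 0.725 with DMSO and 2.14 and 0.958 with SB, again overlapping. Relative to RUNX1, the ratio was 1.57 and 0.780 with DMSO and 1.62 and 1.19 with SB, which overlapped too and was nearly the same in the libraries numbered 1. In bulk RNA, more cells that carry a transcript and more transcript per cell cannot be told apart.

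ETS2, ETV6 and ELF1 were the other factors with both SB libraries above both DMSO libraries, each by less than SPI1. ETS2, a factor activated through ERK, stood at 12.9 and 10.7 FPKM with DMSO and at 17.8 and 16.7 FPKM with SB (log2 fold change 0.52, SE 0.18, 95% interval 0.06 to 0.98, unadjusted p 0.0346, limma adjusted p 0.450). ETV6 (ENSG00000139083.10, chr12:11649854-11895402, plus strand), a repressor needed by blood stem cells, stood at 9.28 and 10.7 FPKM with DMSO and at 13.8 and 14.4 FPKM with SB (log2 fold change 0.46, SE 0.17, 95% interval 0.03 to 0.90, unadjusted p 0.0407, limma adjusted p 0.474). The SDs over 2 libraries were 1.57 FPKM with DMSO and 0.804 FPKM with SB for ETS2, and 0.986 and 0.411 FPKM for ETV6. ELF1 (ENSG00000120690.15, chr13:40932028-41061440, minus strand) stood at 30.3 and 41.6 FPKM with DMSO and at 48.2 and 53.1 FPKM with SB. Its DMSO libraries were further apart, and the estimate (log2 fold change 0.50, SE 0.21, 95% interval -0.06 to 1.05, limma adjusted p 0.560) was 0.65 within replicate 1 and 0.34 within replicate 2. Without DMSO replicate 2 it was 0.72, and without DMSO replicate 1 it was 0.28.

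The promoters of ETS2 and ETV6 are shown because these 2 factors had the smallest p-values of the 9. Each line holds the 250 bases before a RefSeq transcript start (GRCh38.p14), 5′ to 3′ on the gene's strand, with capitals for GGAA, the ETS core, or its reverse complement TTCC.
ETS2 (chr21:38804933-38805182, plus strand): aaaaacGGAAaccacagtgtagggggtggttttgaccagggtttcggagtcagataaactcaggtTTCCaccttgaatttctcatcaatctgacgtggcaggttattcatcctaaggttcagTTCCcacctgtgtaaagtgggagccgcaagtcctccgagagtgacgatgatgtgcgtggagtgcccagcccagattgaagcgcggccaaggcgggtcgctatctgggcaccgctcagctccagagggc
ETV6 (chr12:11649424-11649673, plus strand): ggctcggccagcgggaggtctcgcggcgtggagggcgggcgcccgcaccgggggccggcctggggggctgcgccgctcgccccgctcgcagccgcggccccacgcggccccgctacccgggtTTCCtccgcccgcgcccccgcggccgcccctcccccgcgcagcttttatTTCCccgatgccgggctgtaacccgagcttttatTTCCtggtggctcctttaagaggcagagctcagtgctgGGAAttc
GGAA occurred 3 times before this start of ETS2 and 4 times before that of ETV6 on either strand. It is a common word: 92.7% of 35116 promoter windows of this length held it, with a median of 3 occurrences, and 34.3% held at least 4. The ETS2 window also held AGATAA, a word bound by GATA2 and its relatives, beginning 199 bases before the start, which 9.17% of all windows held on either strand. Neither window held CAGAC, a short SMAD core found in 38.003% of windows, and neither held the longer ETS word CCGGAAGT (3.42% of windows). GC content was 54.4% for ETS2 and 74.4% for ETV6, against a median of 58.0% over all windows. ETS2 has a further RefSeq start, whose window overlaps its own exons and is not printed. That window held GGAA 6 times on either strand and AGATAA 0 times, with a GC content of 68.8%. At least 5 occurrences of GGAA were held by 18.6% of all windows. Promoter entries were found for 6 of the 9 factors.

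For FLI1, ERG and ETS1, the factors best known for endothelium, the groups overlapped and the intervals of the difference include 0. For FLI1 (ENSG00000151702.16) the log2 fold change was 0.20 (SE 0.22, 95% interval -0.38 to 0.79, limma adjusted p 0.878), although the SB library was higher within both numbers (0.22 and 0.18). Removing a library moved this value between 0.0083 (without SB replicate 1) and 0.40 (without SB replicate 2), with 0.028 without DMSO replicate 2 and 0.38 without DMSO replicate 1. ERG (ENSG00000157554.18) stood at 67.1 and 50.7 FPKM with DMSO and at 56.5 and 44.0 FPKM with SB. The SB library was the lower within both numbers (log2 fold change -0.22, SE 0.23, 95% interval -0.81 to 0.37, limma adjusted p 0.865). Removing a library moved it between -0.42 (without DMSO replicate 2) and -0.023 (without DMSO replicate 1), with -0.40 without SB replicate 1 and -0.045 without SB replicate 2. For ETS1 (ENSG00000134954.14) the log2 fold change was 0.04 (SE 0.16, 95% interval -0.37 to 0.46, limma adjusted p 0.976). Its sign turned under 3 other scalings and without DMSO replicate 1, so no direction is given.

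Because the differences of FLI1 and ERG had opposite signs within both numbers, their ratio, which does not depend on the scaling between libraries, was also computed after the values were seen. FLI1 stood at 4.07 and 4.21 times the level of ERG in the DMSO libraries and at 5.65 and 5.52 times in the SB libraries. The groups did not overlap. A higher ratio with SB within each number followed from the signs for which the pair was chosen, so it is no further support. How often other gene pairs separate in this way was not computed. For ERG to CDH5, which encodes the junction protein VE-cadherin, the ratio was 0.246 and 0.206 with DMSO and 0.253 and 0.218 with SB. The ratio of FLI1 to KLF1, the erythroid factor that FLI1 opposes, was 8.18 and 9.82 with DMSO and 9.41 and 10.2 with SB. Both of these overlapped between the groups. Other ratios computed after the values were seen did not overlap either. ETS1 to ETS2 was 9.18 and 12.5 with DMSO and 7.15 and 7.90 with SB. SPI1 to PECAM1 was 0.281 and 0.161 with DMSO and 0.624 and 0.419 with SB. Separation between the groups was therefore not particular to FLI1 and ERG. The FLI1 and ERG values rest on 2 libraries a group, for which no exact test can pass.

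ERG has several annotated starts. The window of the most upstream RefSeq start is printed as a contrast to ETS2, its neighbour on chromosome 21, with GGAA or TTCC in capitals as before.
ERG (chr21:38660668-38660917, minus strand): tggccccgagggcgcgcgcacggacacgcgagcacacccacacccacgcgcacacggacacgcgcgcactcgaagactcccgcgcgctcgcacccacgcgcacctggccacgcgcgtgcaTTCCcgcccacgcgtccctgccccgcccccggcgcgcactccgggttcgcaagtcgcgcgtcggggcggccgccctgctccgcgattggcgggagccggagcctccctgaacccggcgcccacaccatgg
It held GGAA only 1 time on either strand, 4 occurrences of GGGCGG, the GC box found in 42.6% of all windows, and 0 of AGATAA. The GC content was 77.2%, at or above that of 93.8% of windows. ERG has 3 further RefSeq starts within the gene. Windows of 2 of them, near chr21:38498477 and chr21:38498504, overlap and hold the same single AGATAA, with a GC content of 44.8% and 46.4%, and with GGAA 2 times and 1 time. The window of the start near chr21:38584945 held GGAA 4 times and AGATAA 0 times, with a GC content of 36.4%. The FPKM of a gene cannot be split between its starts here.

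ELK3 (ENSG00000111145.7, chr12:96194382-96269835, plus strand), a repressor of the ternary complex factor group that is active in endothelium, stood at 64.96 and 78.5 FPKM with DMSO and at 59.5 and 68.8 FPKM with SB. The groups overlapped, with the SB library lower within both numbers (log2 fold change -0.16, SE 0.19, 95% interval -0.64 to 0.33, limma adjusted p 0.893). With a library removed the value lay between -0.29 (without DMSO replicate 1) and -0.021 (without DMSO replicate 2), with -0.052 without SB replicate 1 and -0.26 without SB replicate 2. ETV2 (ENSG00000105672.14, chr19:35641745-35644871, plus strand), the factor that opens the endothelial program in mesoderm, stood at 2.81 and 0.436 FPKM with DMSO and at 2.71 and 1.17 FPKM with SB. The libraries numbered 1 were above those numbered 2 in both groups, and the difference between numbers (-1.09 on the log2 scale for number 2 against number 1) was larger than that between treatments. The estimate (log2 fold change 0.28, SE 0.55, 95% interval -1.16 to 1.72, limma adjusted p 0.956) was -0.04 within replicate 1 and 0.59 within replicate 2, and it turned to -0.43 without DMSO replicate 2 and to -0.11 without SB replicate 1. ETV2 was therefore detected at a low level, and no difference was detectable with these libraries.

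The ETV2 promoter is shown since ETS cores are grouped at its start.
ETV2 (chr19:35641495-35641744, plus strand): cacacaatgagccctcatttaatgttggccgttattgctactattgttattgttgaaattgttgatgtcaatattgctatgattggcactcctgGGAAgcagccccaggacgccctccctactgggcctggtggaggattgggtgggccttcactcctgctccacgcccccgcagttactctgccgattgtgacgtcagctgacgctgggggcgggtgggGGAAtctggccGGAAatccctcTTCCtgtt
It held GGAA 4 times on either strand, of which 3 began 30, 19 and 8 bases before the start. It also held TGACGTCA, the palindromic cAMP response element, beginning 60 bases before the start, which 1.65% of all windows held. AGATAA was not among the letters of this window, nor were the SMAD core and the longer ETS word.

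Over the ETS family as a whole, the 9 factors held most of the transcripts. The FPKM of the 28 family genes summed to 855 and 730 with DMSO and to 955 and 797 with SB, and the 9 factors made up 74.2% and 77.5% of the sum with DMSO and 79.4% and 79.9% with SB. FLI1 alone held between 29.3% and 33.4%. The share of SPI1 was 6.48% and 3.59% with DMSO and 11.9% and 8.02% with SB, and that of ERG was 7.85% and 6.95% with DMSO and 5.92% and 5.52% with SB. Neither of these shares overlapped between the groups, and they lay on opposite sides. Shares are parts of 1 sum, so a rise in some lowers the others, and the FPKM of ERG itself overlapped between the groups. The share of ETS2 did not overlap either, at 1.51% and 1.47% with DMSO and 1.87% and 2.10% with SB. ETS1 held 13.9% and 18.3% with DMSO and 13.4% and 16.5% with SB, overlapping between the groups.

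**Figure D3:**
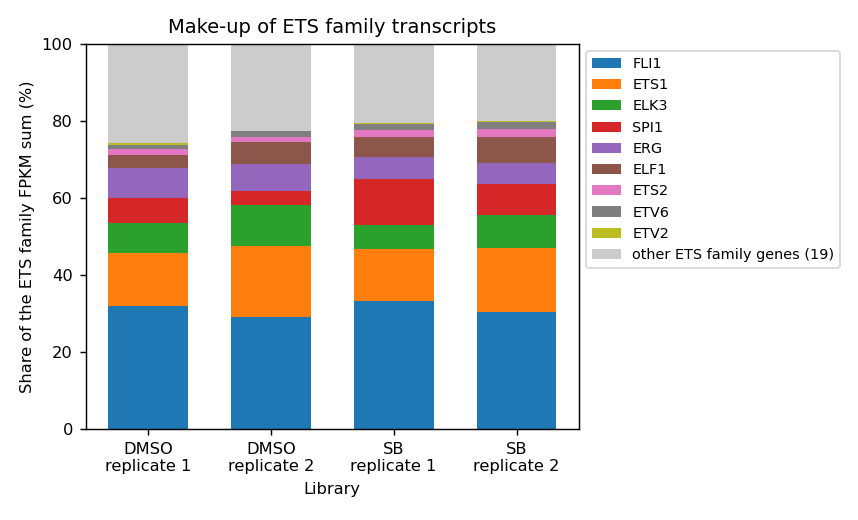
Share of the summed FPKM of 28 ETS family genes held by each of the 9 factors and by the other 19 genes together (light grey, at the top), in percent, for each library. The SPI1 band is wider in both SB libraries (11.9% and 8.02%) than in either DMSO library (6.48% and 3.59%), while FLI1 is the widest band in every library.

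Of the other 19 ETS family genes, 10 passed the filter, and 0 of these passed the limma adjusted p of 0.05, with 0 at an unadjusted p under 0.05. Their median log2 fold change was -0.05, which turned to 0.042 without DMSO replicate 1 and to 0.021 without SB replicate 2. In 2 of the 10 both SB libraries were above both DMSO libraries and in 1 both were below, beside 21.5% and 16.0% of all genes. The highest values were those of ELF4 (11.9 and 9.96 FPKM with DMSO, 15.4 and 12.5 FPKM with SB, log2 fold change 0.32) and ELF2 (0.19). The lowest were those of ETV1 (-0.28) and ETV4 (-0.26), both members of the PEA3 group that responds to growth factors. The epithelial factors ELF3, EHF and SPDEF stayed below 1 FPKM in each library, and ETV3L and SPIC were listed at 0 throughout. SPIB, the lymphoid relative of SPI1, reached at most 0.0902 FPKM.

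Factors listed as partners of the ETS factors gave a mixed picture. Of 13 listed partners all were tested, 0 passed the adjusted p, 3 were higher (MEF2C, RUNX1 and GATA1) and 1 was lower (FOXC2) at an unadjusted p under 0.05, beside 4.80% and 5.16% of all genes. FOXC2 passed the filter only through DMSO, and among the 12 partners with a mean of at least 1 FPKM in both groups 0 were lower. The median over the 13 log2 fold change was 0.23 (-0.095 without DMSO replicate 2, -0.065 without SB replicate 1, 0.50 without DMSO replicate 1 and 0.43 without SB replicate 2). MEF2C, a target of ETS factors in mesoderm and endothelium, stood at 39.9 and 42.1 FPKM with DMSO and at 77.8 and 70.5 FPKM with SB (log2 fold change 0.84, limma adjusted p 0.205). RUNX1, needed for the endothelial-to-hematopoietic transition (EHT), had a log2 fold change of 0.81 (limma adjusted p 0.280). FOXC2, which acts with ETV2 at endothelial enhancers, stood at 6.08 and 4.06 FPKM with DMSO and at 0.904 and 0.474 FPKM with SB (log2 fold change -1.84, limma adjusted p 0.135). CBFB, the partner of RUNX1, followed as the next lowest at -0.24, with opposite signs within the numbers. LMO2, which joins ERG and FLI1 at blood stem cell enhancers, stood at 144 and 133 FPKM with DMSO and at 137 and 132 FPKM with SB.

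Genes known to be driven by the ETS factors were followed by lineage, without a test of the difference between lists. Each list was written by hand from known roles, and in none of them (0 genes in each) did a member pass the limma adjusted p of 0.05. Of 11 megakaryocyte genes tied to FLI1, 10 were tested, and GP5 and PPBP among these passed the filter only through the SB libraries, so that they had to be higher with SB. Of the other 8, with a mean of at least 1 FPKM in both groups, 8 had both SB libraries above both DMSO libraries and 7 had an unadjusted p under 0.05, beside 21.5% and 4.80% of all genes. Their median log2 fold change was 1.32, with the log2 fold change of FLI1 itself at 0.20. GP6 was not tested (at most 0.607 FPKM). Without a filter the median over all 11 was 1.04. The highest of the 10 were the platelet chemokine genes PPBP, at 0.559 and 1.29 FPKM with DMSO and at 10.3 and 15.0 FPKM with SB (2.83), and PF4, at 32.6 and 49.7 FPKM with DMSO and at 199 and 322 FPKM with SB. Among the lowest was ITGA2B, at 153 and 127 FPKM with DMSO and at 243 and 194 FPKM with SB (0.63).

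The myeloid genes tied to SPI1 were alike in direction. Of 16 listed, 10 were tested, all 10 with both SB libraries above both DMSO libraries and 8 with an unadjusted p under 0.05, beside 21.5% and 4.80% of all genes, and the median was 0.83 (0.53 over 14 genes without a filter). NCF4, a subunit of the phagocyte oxidase, stood at 3.31 and 3.94 FPKM with DMSO and at 15.6 and 16.4 FPKM with SB (log2 fold change 1.88, limma adjusted p 0.0650), and CSF1R, the macrophage growth factor receptor gene, at 2.77 and 1.83 FPKM against 14.4 and 12.5 FPKM (2.14, limma adjusted p 0.0753). LYN (0.27) and LYZ (0.47) were the lowest. The 6 that were not tested, ITGAM, CYBB, PTPRC, CSF2RA and FCGR1A among them, stayed below 1 FPKM on average in each group, and CSF2RA and FCGR1A were listed at 0 in each library. ITGAM, which encodes CD11b, stood at 0.429 and 0.6096 FPKM with DMSO and at 0.0458 and 0.0521 FPKM with SB.

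Endothelial genes with ETS sites in their enhancers did not share a direction. All 23 were tested, with a median of -0.17, and removing SB replicate 2 took it to -0.038, removing DMSO replicate 1 to -0.049. In 5 both SB libraries were above both DMSO libraries and in 7 both were below, beside 21.5% and 16.0% of all genes. At an unadjusted p under 0.05, 2 were higher and 4 lower with SB, beside 4.80% and 5.16% of all genes. Within both replicate numbers 7 were higher and 14 lower, beside 40.9% and 30.6% of all genes. ICAM2, a long-known ERG target, stood at 58.0 and 70.1 FPKM with DMSO and at 126 and 144 FPKM with SB (log2 fold change 1.07, limma adjusted p 0.170), and the tight junction gene CLDN5 at 121 and 79.4 FPKM against 231 and 177 FPKM (1.04, limma adjusted p 0.318). ENG, a coreceptor for TGFβ and BMP ligands, stood at 64.2 and 47.9 FPKM with DMSO and at 17.8 and 14.7 FPKM with SB (-1.72, limma adjusted p 0.0986), and ROBO4 at 12.0 and 11.8 FPKM against 4.83 and 5.26 FPKM (-1.09, limma adjusted p 0.135).

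Of 9 mesoderm genes from the stage at which ETV2 acts, 5 were tested, and MIXL1 passed the filter only through the DMSO libraries, so that it had to be lower with SB. Of the other 4, 3 lay below DMSO in both SB libraries and 1 above, beside 16.0% and 21.5% of all genes. The median was -0.48 over these 4 and -0.58 over the 5, and without a filter the median over 8 genes was -0.17. HAND1 stood at 11.6 and 11.1 FPKM with DMSO and at 2.34 and 1.98 FPKM with SB (log2 fold change -1.97, limma adjusted p 0.0646), and PDGFRA was the next lowest (-0.82). The highest were APLNR, the apelin receptor gene (0.44), and LEF1 (-0.14). TBXT, the earliest mesoderm factor, reached at most 0.0806 FPKM. The 13 genes that respond to ERK, the kinase upstream of ETS1, ETS2 and ELK3, had a median of -0.17, and its range with a library removed was -0.38 (SB replicate 1) to 0.031 (DMSO replicate 1). In 3 of the 13 both SB libraries were above both DMSO libraries and in 6 both were below, beside 21.5% and 16.0% of all genes. FOS (0.78) and PHLDA1 (0.46) were the highest and the ERK inhibitor gene SPRY4 (13.2 FPKM in both DMSO libraries, 5.95 and 6.10 FPKM with SB, -1.01) and IER3 (-0.61) the lowest.

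**Figure D4:**
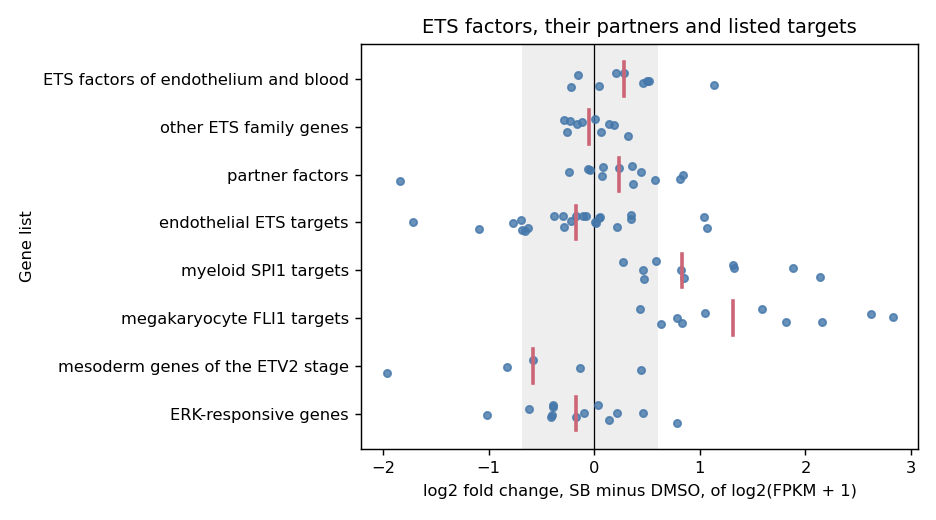
Log2 fold change (SB minus DMSO, on log2(FPKM + 1)) of each tested gene in the ETS lists, with a red line at each list's median and a grey band from the 5th to the 95th percentile of all tested genes. The plotted megakaryocyte (median 1.32) and myeloid (0.83) genes lie wholly to the right of 0, while the ETS factors themselves centre on 0.28. GP5 and PPBP passed the filter only through SB and had to lie there. Genes that did not pass the filter are not plotted, among them the myeloid gene ITGAM, which was lower with SB.

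The genes most like each factor in pattern were sought among 84 tested genes of these lists, by the root mean square difference of centred log2(FPKM + 1) over the 4 libraries. With so few libraries this is a description. ETS1 lay nearest to KDR, the VEGF receptor gene (0.020), and then to DUSP6 (0.059). ERG lay nearest to VWF (0.063) and TIE1 (0.064), both genes of endothelium. ELK3 lay nearest to ETV3 (0.018) and TEK (0.052), FLI1 to ELF4 (0.083) and ELK1 (0.084), ETS2 to APLNR (0.039) and CSF2RB (0.056), ETV6 to BTK (0.061) and PHLDA1 (0.068), and ELF1 to LYZ (0.034) and PHLDA1 (0.077). The genes nearest to SPI1 were CLDN5 (0.23) and ITGA2B (0.41). Values were centred but not scaled, so these distances grow with the size of a gene's differences as well as with unlikeness of pattern. ETV2 lay nearest to FOXC1 (0.15) and NOS3 (0.17), both of which were also higher in replicate 1 than in replicate 2 of each group.

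Summed levels of markers of other cell types also differed between the groups. Endoderm and liver markers summed to 286 and 325 FPKM with DMSO and to 29.01 and 32.1 FPKM with SB. Of their 7 tested genes, 4 were lower with SB past the limma adjusted p of 0.05, beside 0.107% of all genes. Among the 7, 3 had passed the filter only through DMSO. Mesenchymal markers summed to 413 and 379 FPKM against 204 and 209 FPKM, cardiac markers to 49.5 and 26.2 FPKM against 11.8 and 6.48 FPKM, and epithelial markers to 240 and 235 FPKM against 111 and 117 FPKM. Pluripotency markers summed to 69.8 and 89.3 FPKM with DMSO and to 93.6 and 114 FPKM with SB, mostly from LIN28A and DPPA4. In 2 of 3 tested genes (LIN28A and POU5F1) both SB libraries were above both DMSO libraries, beside 21.5% of all genes. POU5F1 passed the filter only through SB, and NANOG and SOX2 were below 1 FPKM. Blood markers summed to 223 and 204 FPKM with DMSO and to 337 and 306 FPKM with SB. Of 5 tested genes, 4 were above DMSO in both SB libraries and 1 was below, beside 21.5% and 16.0% of all genes. The part of these differences in the values of SPI1, ETS2, ETV6 and ELF1 was not tested.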

How the data were processed

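RNA-seq of 2 DMSO and 2 SB libraries of H1-derived cells was analysed from 1 table of the whole series. The authors deposited FPKM values in 58365 rows, with 1 column per library. A service company ran the sequencing and its primary processing. The submitters' processing notes name BWA, Bowtie and RSEM, without versions or roles, and the build hg19, but 95.5% of the identifiers are found in GENCODE release 29, nearly all (99.97%) at its GRCh38 positions, so GRCh38 is used here. No scaling between libraries is stated.

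Values were transformed to log2(FPKM + 1), which understates the change of low genes, and filtered for a mean of at least 1 FPKM in at least 1 group. The comparison of SB with DMSO used limma 3.58.1 under R 4.3.3 (empirical Bayes with a trend, group as the only term, Benjamini-Hochberg adjustment over all 14909 tested genes, threshold 0.05). The script was tested on simulated data. Because FPKM are not counts, no count test was run, and errors are SDs or SEs over n = 2 libraries a group. Relative depth came from the most common ratio between libraries of values under 0.3 FPKM.

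The 9 factors and all lists were chosen with earlier results of these data known. Named besides the 9 factors are the 2 highest and 2 lowest tested genes of each list and the 2 nearest in pattern to each factor, and any other gene named was chosen after its values were seen. Some genes of the lists are not reported here. TBXT is listed under an older symbol and was matched by its identifier. Coding sequence came from GENCODE transcripts and promoters from RefSeq. A planned comparison of protein sequences was replaced by 48 coding bases, found by translating the transcripts. In all, 13 alternatives were run. A count over list genes with a mean of at least 1 FPKM in both groups was added after the data were seen.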

Additional observations from a re-analysis of the deposited data

How the results depend on the processing

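The sign of the estimate was positive for SPI1, ETS2, ETV6, ELF1 and FLI1, and negative for ERG and ELK3, in all 13 alternatives, but with a library removed it came as near to 0 as 0.0083 for FLI1, -0.023 for ERG and -0.021 for ELK3. The value of SPI1 ranged from 0.61 to 1.66. Of the 9 factors, 0 passed the adjusted p in 8 alternatives with all libraries. The 4 that remove a library leave 1 in a group, assumed to vary like the other group, and there 0 passed too. With the replicate number as a block, 3 passed, which were SPI1 (limma adjusted p 0.00775), ETS2 (0.0404) and ELF1 (0.0495), while ETV6 (0.0502) did not; 1564 of all genes passed this fit, 10.5%. The labels do not say that a number marks a shared culture. Deviations of the 2 libraries numbered 1 from their group means correlated across genes (r = 0.528), with only 2 pairs. The count of all genes that passed was 0 without a filter, where 2739 had an unadjusted p under 0.05 and rows at 0 in every library were left out, 31 with quantile normalization and 0 to 14 with a library removed (0 without DMSO replicate 1). The median over the 9 factors was 0.50 with a pseudocount of 0.1, and 0.067 to 0.43 with a library removed. The value of ETS1 turned to -0.0069 with quantile normalization, -0.016 with upper-quartile scaling, -0.0053 when rescaled to a common sum and -0.040 without DMSO replicate 1 (-0.040 to 0.13 with a library removed). That of ETV2 turned to -0.43 without DMSO replicate 2 and -0.11 without SB replicate 1 (-0.43 to 0.98 with a library removed), and it has no value under the filter of 5 FPKM in 2 libraries. The cause was not tested. Unknown depth prevents counting intervals for single values, which matters most for ETV2.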
